A study of Gallus gallus with 12 samples.

Results

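SOX9, SOX5 and SOX6 are transcription factors of the SRY-related HMG-box family that together direct cartilage formation. They were taken by name from the deposited gene counts of chick limb-bud mesenchymal cells, where they are 3 of 21350 listed features. All 3 passed the low-count filter that left 18979 genes for testing. RNA-seq was made from 12 libraries in 6 groups of 2. In 5 groups the cells carried RCAS-BP(A), a retroviral vector that replicates in avian cells, with the coding sequence of 1 connective tissue-associated factor, given as RCAS-BP(A)-OSR1-3F, RCAS-BP(A)-OSR2-3F, RCAS-BP(A)-EGR1-3F, RCAS-BP(A)-KLF2-3F or RCAS-BP(A)-KLF4-3F. The Control group carried RCAS-BP(A)-empty, so every group was exposed to virus and none was left uninfected. OSR1 and OSR2 are odd-skipped-related zinc-finger proteins, EGR1 is an early growth response zinc-finger protein, and KLF2 and KLF4 are Krüppel-like zinc-finger proteins. Cells of Lohmann Selected Leghorn embryos were taken at embryonic day 4.5, infected, plated as dense droplets and kept for 5 days, and each RNA extract drew on 6 pooled cultures. The labels do not say whether the 2 replicates of a group came from separate embryos, so p-values rest on the spread within these pairs of libraries, which may be technical. All groups expressed the limb mesenchyme markers PRRX1, TWIST1, MSX1, LHX9, COL1A1 and COL1A2.

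Dense droplets of limb-bud mesenchyme, known as micromass cultures, form cartilage nodules. SOX9 is required, in mouse, for mesenchymal condensation and for chondrocyte differentiation, and binds DNA as a SoxE protein with its own activation domain. SOX5 and SOX6 are SoxD proteins with no known activation domain. In mouse they are induced downstream of SOX9 in prechondrocytes and act with it at enhancers of cartilage matrix genes such as Col2a1 and Acan. In these bulk libraries, fewer cells expressing a gene and less of its RNA per cell cannot be told apart.

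Library totals ran from 74139243 to 106079374 counts in the factor libraries, against 51233721 and 59297870 in Control. Each factor's own gene was above Control in its group, by log2 fold changes from 5.66 for KLF2 to 9.34 for OSR1. The Control libraries also stood apart. On the first principal component of all genes, with 41.8% of the variance, the 10 factor libraries lay between -7.47 and 38.9 and the Control libraries at -96.0 and -75.3. Of all genes tested, 51% were called in the comparison of OSR1 with Control, 51.9% for OSR2, 45.1% for EGR1, 51.6% for KLF2 and 54.2% for KLF4, at a Benjamini-Hochberg adjusted p under 0.05 in edgeR's quasi-likelihood test. A call of 1 member therefore does not set it apart from other genes, and the size of its change and its place among all genes are given as well. The share of all genes, or of ratios of genes, whose libraries separate the groups without overlap was not counted. Such a separation therefore does not set a member apart either. The 5 comparisons share the same 2 Control libraries and are not independent of each other. Levels are CPM, counts divided by the scaled library total and brought to a common total, and are not divided by gene length, so they compare libraries for 1 gene and not 1 gene with another.

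The 3 genes were lowest in OSR1 and OSR2 libraries. In EGR1 libraries none was called against Control by edgeR, though SOX6 was at 0.764 of the Control level. In KLF2 and KLF4 libraries SOX5 and SOX6 were below Control while SOX9 did not pass the test. Over the 12 libraries the highest level was 5.20 times the lowest for SOX9, 2.94 times for SOX5 and 8.61 times for SOX6. Each gene was lowest in replicate 2 of OSR2. Counts per library ran from 7922 to 49163 for SOX9, from 2983 to 10479 for SOX5 and from 260 to 2181 for SOX6, so counting error was at most 1.12%, 1.83% and 6.20% of the count.

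**Figure D1:**
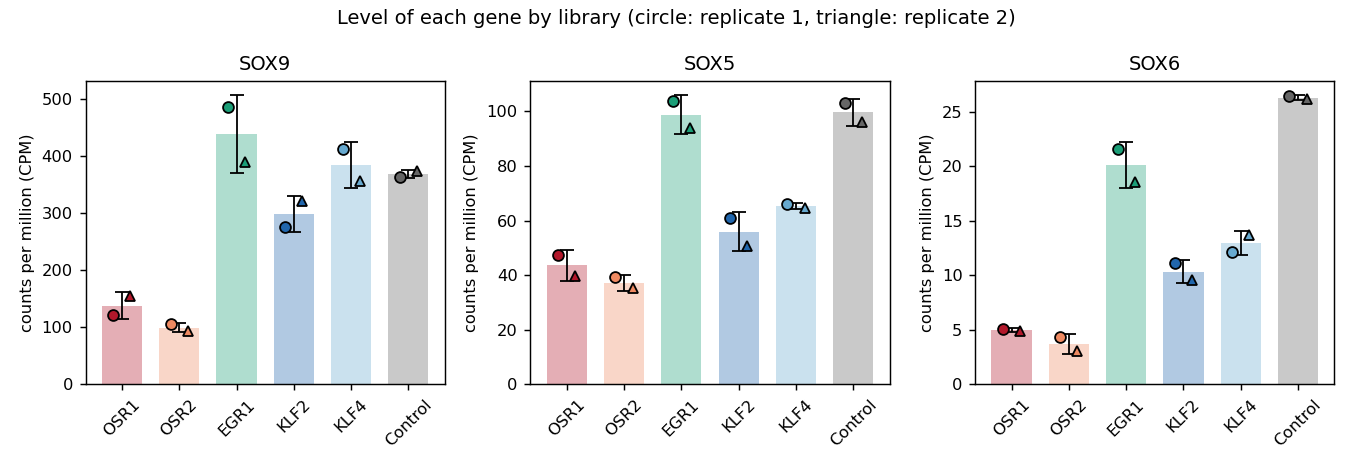
CPM of SOX9, SOX5 and SOX6 in the 12 libraries, with 1 point per library and a bar at the mean of each group of 2. The OSR1 and OSR2 points lie below those of every other group for SOX9, SOX5 and SOX6.

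SOX9, the factor that commits mesenchyme to the cartilage lineage, stood at 121 and 155 CPM in OSR1 libraries, 106 and 93.6 CPM in OSR2 libraries, 487 and 390 CPM in EGR1 libraries, 276 and 322 CPM in KLF2 libraries, 413 and 356 CPM in KLF4 libraries, and 364 and 374 CPM in Control libraries. The 4 OSR libraries were all below the 8 others. SOX9 averaged 138 ± 23.9 CPM in OSR1 libraries and 99.6 ± 8.50 CPM in OSR2 libraries, against 369 ± 7.43 CPM in Control libraries (SD, n = 2 each). It fell in OSR1 cells by 1.42 on the log2 scale (SE 0.147, adjusted p = 5.37e-05, edgeR), to 0.375 of the Control level. In OSR2 cells it fell by 1.89 (SE 0.149, adjusted p = 7.09e-06, edgeR), to 0.270 of the Control level. Among all genes, 3.73% had a lower log2 fold change than SOX9 in the OSR1 comparison and 2.44% in the OSR2 comparison.

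With the other 3 factors SOX9 was not called. Its mean was 439 ± 68.3 CPM in EGR1 libraries, 299 ± 32.3 CPM in KLF2 libraries and 385 ± 40.4 CPM in KLF4 libraries (SD, n = 2 each). The EGR1 libraries were both above the Control pair and the KLF2 libraries both below it, while the KLF4 libraries lay on either side. The log2 fold change was 0.25 in EGR1 cells (95% interval -0.071 to 0.57, adjusted p = 0.182, edgeR), -0.30 in KLF2 cells (-0.62 to 0.016, adjusted p = 0.102) and 0.060 in KLF4 cells (-0.26 to 0.38, adjusted p = 0.744). None of these intervals reaches the size of the change in OSR1 or OSR2 cells. In KLF4 cells the sign of the SOX9 value turned, to -0.046, when KLF4 replicate 1 was left out.

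SOX5, which lacks an activation domain and assists SOX9 at cartilage enhancers, stood at 47.6 and 39.6 CPM in OSR1 libraries, 39.3 and 35.2 CPM in OSR2 libraries, 104 and 93.8 CPM in EGR1 libraries, 61.1 and 50.9 CPM in KLF2 libraries, 66.2 and 64.7 CPM in KLF4 libraries, and 103 and 96.2 CPM in Control libraries. The OSR1, OSR2, KLF2 and KLF4 libraries were all below both Control libraries, and the EGR1 libraries overlapped them. SOX5 fell by 1.19 on the log2 scale in OSR1 cells (SE 0.115, adjusted p = 2.59e-05, edgeR) and by 1.42 in OSR2 cells (SE 0.115, adjusted p = 6.56e-06). It fell by 0.83 in KLF2 cells (SE 0.114, adjusted p = 0.000254, edgeR) and by 0.61 in KLF4 cells (SE 0.113, adjusted p = 0.00131). These put SOX5 at 0.437, 0.374, 0.562 and 0.657 of the Control level in OSR1, OSR2, KLF2 and KLF4 cells.

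The place of SOX5 among all genes lay further down in OSR than in KLF cells. In the OSR1 and OSR2 comparisons 5.14% and 4.43% of genes had a lower log2 fold change, and in the KLF2 and KLF4 comparisons 11.0% and 18.4%. In EGR1 cells SOX5 averaged 98.8 ± 7.04 CPM, against 99.7 ± 4.99 CPM in Control libraries (SD, n = 2 each). The log2 fold change was -0.013 there (95% interval -0.26 to 0.24, adjusted p = 0.934, edgeR). Its sign turned when Control replicate 1 (0.041) or EGR1 replicate 2 (0.062) was left out.

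SOX6, the other SoxD member, stood at 5.11 and 4.87 CPM in OSR1 libraries, 4.38 and 3.07 CPM in OSR2 libraries, 21.6 and 18.6 CPM in EGR1 libraries, 11.1 and 9.60 CPM in KLF2 libraries, 12.2 and 13.7 CPM in KLF4 libraries, and 26.4 and 26.2 CPM in Control libraries. All 10 factor libraries were below both Control libraries, and the 4 OSR libraries were below all others. SOX6 fell by 2.40 on the log2 scale in OSR1 cells (SE 0.166, adjusted p = 3.39e-06, edgeR) and by 2.82 in OSR2 cells (SE 0.169, adjusted p = 9.94e-07). That is 0.190 and 0.142 of the Control level, and 0.854% and 0.806% of genes had a lower log2 fold change. In KLF2 cells SOX6 fell by 1.34 (SE 0.159, adjusted p = 0.000117, edgeR) and in KLF4 cells by 1.02 (SE 0.158, adjusted p = 0.000439), to 0.394 and 0.492 of the Control level. In those comparisons 4.29% and 8.87% of genes had a lower log2 fold change.

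In EGR1 cells SOX6 averaged 20.1 ± 2.12 CPM, against 26.3 ± 0.187 CPM in Control cells (SD, n = 2 each). Its log2 fold change of -0.39 missed the threshold (SE 0.156, 95% interval -0.73 to -0.044 before adjustment, adjusted p = 0.0637, edgeR). It passed with DESeq2 (adjusted p = 0.039), with library totals alone (0.0268), in a fit of EGR1 and Control libraries only (0.017), without OSR2 replicate 1 (0.0303) and without OSR2 replicate 2 (0.0302).

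Counted by comparison, 3 of 3 members were called lower in OSR1 cells, where 22.7% of all genes were called lower, and 3 of 3 in OSR2 cells, where 23% were. In EGR1 cells 0 of 3 were called in either direction by edgeR, where 45.1% of all genes were called. DESeq2 called 1 of the 3 there, SOX6, and 8189 genes in all. At an unadjusted p under 0.05 edgeR's test also gave SOX6 alone, and the share of all genes under that rule was not counted. In KLF2 and KLF4 cells 2 of 3 were called lower, where 23.5% and 25.5% of all genes were. Each of the 10 calls against Control kept its direction and its call under the 18 alternatives tried, among them leaving out each library in turn.

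**Figure D2:**
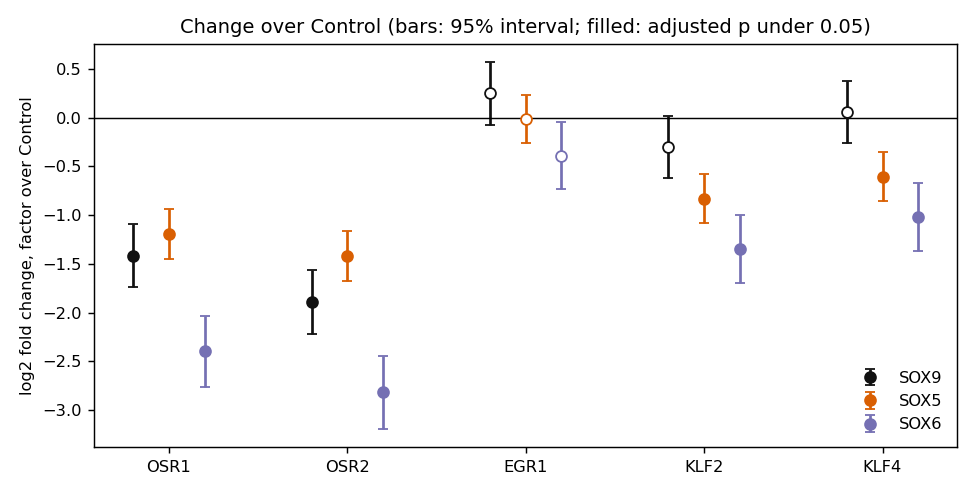
Log2 fold change against Control of SOX9, SOX5 and SOX6 in each factor group, with 95% intervals from the edgeR fit. In OSR1 and OSR2 cells all 3 genes lie between -1.19 and -2.82, and in KLF2 and KLF4 cells SOX9 overlaps 0 while SOX5 and SOX6 do not.

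The factor groups were also compared with each other in the same fit, where the Control libraries enter only the estimate of the spread. OSR1 did not differ from OSR2 at the threshold for any member, with log2 differences of 0.47 for SOX9 (95% interval 0.15 to 0.79), 0.22 for SOX5 (-0.027 to 0.48) and 0.42 for SOX6 (0.057 to 0.78), each with an adjusted p of 1 in edgeR. In that comparison 0.0105% of all genes were called. Unadjusted p-values were 0.00818, 0.0748 and 0.0272 for SOX9, SOX5 and SOX6. KLF2 and KLF4 also did not differ at the threshold, with log2 differences of -0.36 for SOX9, -0.23 for SOX5 and -0.32 for SOX6 (adjusted p = 0.271, 0.406 and 0.39, edgeR) and 2.66% of all genes called.

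Set against EGR1 cells, the OSR cells were lower in all 3 genes. The log2 difference was -1.66 for SOX9, -1.18 for SOX5 and -2.01 for SOX6 between OSR1 and EGR1 cells (adjusted p = 6.42e-05, 8.47e-05 and 3.22e-05, edgeR), where 6.06% of all genes were called lower. It was -2.14 for SOX9, -1.41 for SOX5 and -2.43 for SOX6 between OSR2 and EGR1 cells (adjusted p = 8.89e-06, 1.69e-05 and 5.61e-06, edgeR), where 7.81% were called lower. EGR1 cells held more SOX5 and SOX6 than KLF cells. SOX5 was higher in EGR1 than in KLF2 cells by 0.82 and than in KLF4 cells by 0.59 (adjusted p = 0.00147 and 0.00435, edgeR), and SOX6 by 0.96 and 0.63 (adjusted p = 0.00409 and 0.0187). Of all genes, 4.54% were called higher in EGR1 than in KLF2 cells and 8.26% in EGR1 than in KLF4 cells. The SOX6 difference from KLF4 missed the threshold without EGR1 replicate 1 (adjusted p = 0.129), KLF4 replicate 1 (0.162) or KLF4 replicate 2 (0.0628).

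SOX9 was higher in EGR1 than in KLF2 cells by 0.55 (SE 0.144, adjusted p = 0.0428, edgeR), and its difference from KLF4 cells of 0.19 was not called (adjusted p = 0.454). The call against KLF2 was lost in 11 of the 18 alternatives, with an adjusted p from 0.0566 to 0.243. These were the fit of the 2 groups only (0.111), the replicate block (0.072), and the fits without Control replicate 1 (0.0699) or 2 (0.0701), OSR2 replicate 1 (0.0609) or 2 (0.0607), EGR1 replicate 1 (0.243), KLF2 replicate 1 (0.167) or 2 (0.0838) and KLF4 replicate 1 (0.0566) or 2 (0.0567).

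The 4 OSR libraries were below the 4 KLF libraries for each gene. The log2 difference of OSR minus KLF, with the 2 groups of each family averaged, was -1.53 for SOX9 (SE 0.104, adjusted p = 1.93e-06, edgeR), -0.59 for SOX5 (SE 0.0803, adjusted p = 0.000226) and -1.42 for SOX6 (SE 0.115, adjusted p = 4.66e-06). Called lower were 3 of 3 members and 15.6% of all genes, and 2%, 8.9% and 2.36% of genes had a lower difference than SOX9, SOX5 and SOX6. For single pairs of groups, SOX9 and SOX6 were called lower in all 4 pairs of an OSR and a KLF group and SOX5 in 3 of the 4. Of all genes, 5.92% were called lower in OSR1 than in KLF2 cells, 10.5% in OSR1 than in KLF4, 8.5% in OSR2 than in KLF2 and 12.5% in OSR2 than in KLF4 cells. The smallest, SOX5 in OSR1 minus KLF2 cells, was -0.36 (SE 0.113, adjusted p = 0.0603, edgeR). It passed with DESeq2 (adjusted p = 0.0478), the replicate block (0.0158), without OSR1 replicate 1 (0.0269) and without KLF2 replicate 2 (0.0289).

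Ordered by mean level, SOX5 and SOX6 gave the same sequence, with OSR2 lowest, followed by OSR1, KLF2, KLF4, EGR1 and Control. SOX9 also had OSR2, OSR1 and KLF2 at the low end but then Control, KLF4 and EGR1. Most neighbours in these orders did not differ at the threshold. For SOX9 the step between OSR1 and KLF2 was called, with a log2 difference of -1.11 (adjusted p = 0.000562, edgeR). For SOX5 the step between KLF4 and EGR1 was called, and for SOX6 both the step between OSR1 and KLF2 (-1.05, adjusted p = 0.00128, edgeR) and that between KLF4 and EGR1 were.

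The balance between the 3 genes was followed by the log2 ratio of their CPM within a library, in which the library total cancels. Gene length sets the height of such a ratio, so its differences between libraries are what can be read. The SOX5 to SOX9 ratio ran from -1.97 to -1.35 in the 4 OSR libraries (mean -1.54 ± 0.290, SD), against -2.66 to -2.18 in the 4 KLF libraries (mean -2.48 ± 0.224, SD). The groups did not overlap, and relative to SOX9 there was more SOX5 RNA in OSR than in KLF cells by 0.95 on the log2 scale. The exact two-sided permutation test over libraries gave p = 0.0286, the smallest value that 4 against 4 libraries allow, and an adjusted p of 0.0909 over the 12 ratio comparisons made. The SOX6 to SOX9 ratio overlapped between the OSR libraries (mean -4.77 ± 0.222, SD) and the KLF libraries (mean -4.87 ± 0.239, SD), with a difference of 0.10 (exact permutation p = 0.514).

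Control had more SOX6 relative to its partners than the factor groups. The SOX6 to SOX9 ratio ran from -5.09 to -4.39 in the 10 factor libraries, against -3.84 and -3.78 in Control libraries, a difference of -0.94 with no overlap (exact permutation p = 0.0303, the smallest that 10 against 2 allow, adjusted p = 0.0909). The SOX6 to SOX5 ratio ran from -3.52 to -3.02 in OSR libraries, against -2.46 to -2.23 in KLF libraries, a difference of -0.85 with no overlap (exact permutation p = 0.0286, adjusted p = 0.0909). Its difference between the 10 factor libraries and the Control libraries, at -1.96 and -1.88, was -0.79, also with no overlap (exact permutation p = 0.0303, adjusted p = 0.0909). No ratio comparison passed the correction, and none could, as too few libraries were compared for an adjusted p under 0.05. Each p is the smaller tail doubled. The test treats single libraries as exchangeable, including those of the 2 groups of a family. Against Control, the 10 factor libraries also pool 5 different treatments in pairs of libraries. Any 1 group of 2 libraries beyond all others would reach p = 0.0303 in that exact permutation test. These p-values therefore do not set Control apart from a single factor group.

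**Figure D3:**
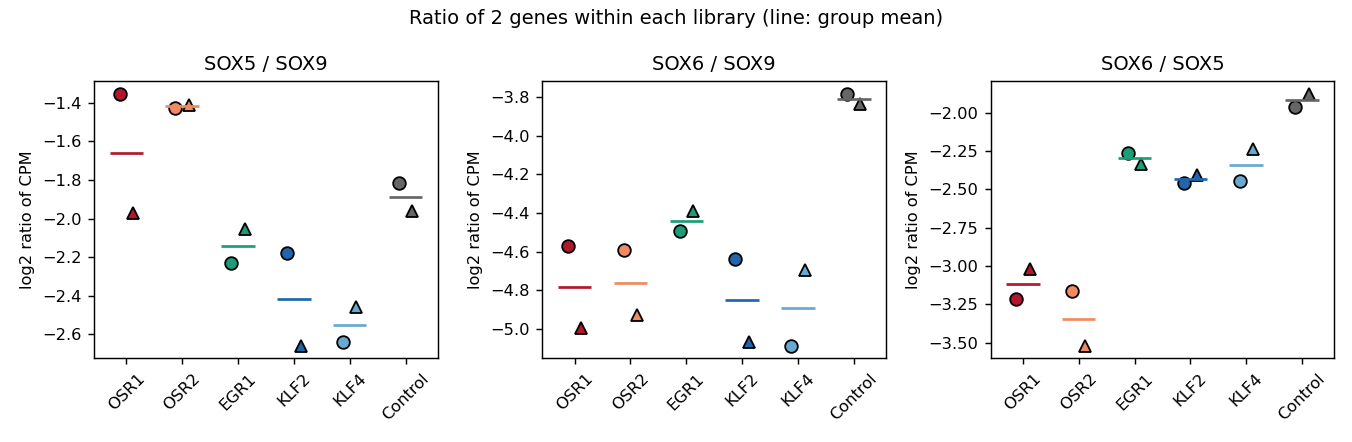
Log2 ratio of the CPM of SOX5 to SOX9, SOX6 to SOX9 and SOX6 to SOX5 within each of the 12 libraries. The SOX5 to SOX9 ratio lies between -1.97 and -1.35 in OSR libraries and between -2.66 and -2.18 in KLF libraries, and the SOX6 to SOX9 ratio is at most -4.39 in the 10 factor libraries and at least -3.84 in the 2 Control libraries.

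The 2 Control libraries enter every comparison with Control. In the OSR and Control libraries the SOX5 to SOX9 ratio overlapped (difference 0.35, exact permutation p = 0.4), while it was lower in the KLF libraries than in the Control libraries by 0.60 with no overlap. The comparison of KLF with Control was added for each ratio after the values were seen, and its exact permutation p of 0.133 is the smallest that 4 against 2 libraries allow. The SOX6 to SOX9 ratio differed from Control by -0.96 in OSR and by -1.06 in KLF libraries. For the SOX6 to SOX5 ratio the differences were -1.31 and -0.47. These SOX6 ratios did not overlap those of Control, each with an exact permutation p of 0.133.

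Genes whose pattern over the 12 libraries was most like each member were found by the root mean square difference of log2 CPM, each centred on its own mean, among 10648 named genes of at least 5 CPM. This is a description of 12 libraries that share 6 treatments, with no test. The genes were picked by likeness, so an order of groups shared with the member is favoured by that choice. COL27A1, CHST11, PAPSS2 and LECT1, named here, are also on the list of cartilage targets followed below. For SOX9 the 5 closest were C11orf87 (0.174), COL27A1 (0.236), PTCH1 (0.239), AKAP5 (0.240) and TSPAN4 (0.241), against a median of 0.845 over all candidates. COL27A1 encodes a fibrillar collagen of cartilage and PTCH1 the hedgehog receptor. COL27A1 averaged 191 CPM in OSR1, 139 CPM in OSR2, 550 CPM in EGR1, 418 CPM in KLF2, 426 CPM in KLF4 and 577 CPM in Control libraries. Like SOX9, it was lowest in the OSR groups, but its highest mean was in Control.

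For SOX5 the 5 closest were MEGF9 (0.116), PAPSS1 (0.132), CHST11 (0.153), COL15A1 (0.156) and FGFR2 (0.160), with a median of 0.587 over all candidates. CHST11 encodes a chondroitin sulfotransferase, PAPSS1 a synthase of the sulfate donor PAPS and FGFR2 a fibroblast growth factor receptor. CHST11 averaged 43.8 CPM in OSR1, 32.4 CPM in OSR2, 98.9 CPM in EGR1, 59.1 CPM in KLF2, 67.6 CPM in KLF4 and 103 CPM in Control libraries. As for SOX5, its mean in both KLF groups lay between those of the OSR groups and those of EGR1 and Control.

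For SOX6 the closest were PAPSS2 (0.126), SORBS2 (0.175), OLFR124 (0.179), LECT1 (0.195) and COBL (0.250), with a median of 1.04 over all candidates. PAPSS2 encodes the PAPS synthase of cartilage, and LECT1 encodes chondromodulin, a secreted inhibitor of blood vessel growth in cartilage. PAPSS2 averaged 56.5 CPM in OSR1, 42.1 CPM in OSR2, 210 CPM in EGR1, 126 CPM in KLF2, 136 CPM in KLF4 and 281 CPM in Control libraries. The members themselves were not each other's closest genes. Among the candidates SOX6 ranked 56 and SOX5 ranked 73 by likeness to SOX9, while SOX9 ranked 813 and SOX6 ranked 2351 by likeness to SOX5. By likeness to SOX6, SOX9 ranked 45 and SOX5 ranked 81. The distance between SOX5 and SOX6 was 0.501 in both rankings, set against a median of 0.587 for SOX5 and 1.04 for SOX6, so ranks by different members are not comparable. Over the 6 group means, 3 of the 5 closest genes were shared for SOX9 and for SOX5 and 4 of 5 for SOX6.

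**Figure D4:**
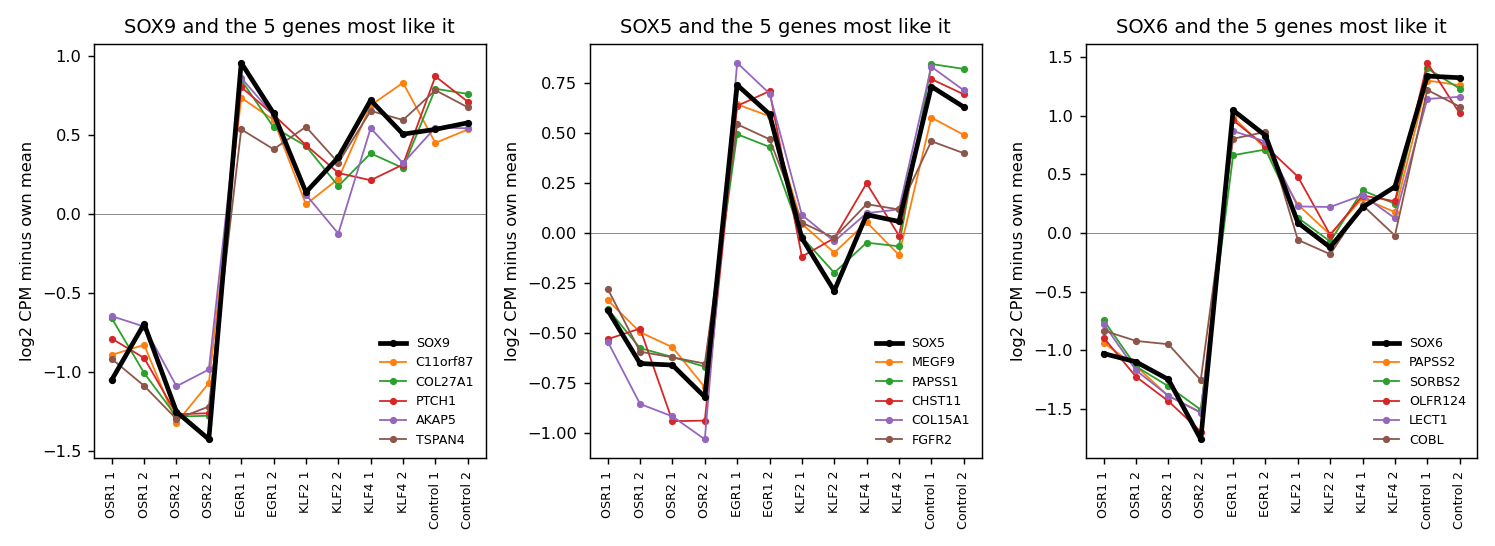
Centred log2 CPM over the 12 libraries of SOX9, SOX5 and SOX6, each with its 5 closest genes. The closest genes lie a root mean square 0.174 to 0.241 from SOX9, 0.116 to 0.160 from SOX5 and 0.126 to 0.250 from SOX6.

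Other SOX genes were also read. SOX8, a SoxE relative of SOX9, averaged 39.4 CPM in OSR1, 30.2 CPM in OSR2, 77.9 CPM in EGR1, 74.2 CPM in KLF2, 73.8 CPM in KLF4 and 80.0 CPM in Control libraries. It fell by 1.02 in OSR1 cells (SE 0.160, adjusted p = 0.000741, edgeR) and by 1.40 in OSR2 cells (SE 0.162, adjusted p = 0.000108), and was lower in OSR than in KLF cells by 1.10 on the log2 scale (adjusted p = 4.71e-05). In EGR1, KLF2 and KLF4 cells SOX8 was not called, with log2 fold changes of -0.039, -0.11 and -0.12 (adjusted p = 0.858, 0.592 and 0.56, edgeR).

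SOX13, the remaining SoxD gene besides SOX5 and SOX6, was higher in OSR1 cells by 0.86 and in OSR2 cells by 0.99 on the log2 scale (adjusted p = 0.00241 and 0.000957, edgeR), opposite in direction to SOX5 and SOX6. It was called in EGR1 cells (0.50, adjusted p = 0.0385) but not when any 1 Control, OSR2, EGR1 or KLF4 library was left out (adjusted p = 0.0523 to 0.175), with library totals alone (0.074) or with the replicate block (0.0531). The call in KLF2 cells (0.56, adjusted p = 0.0207) was lost without Control replicate 1 (0.114), Control replicate 2 (0.0552) or KLF2 replicate 1 (0.132). Among the SoxC genes, which act in many progenitor cells, SOX11 was not called in any comparison with Control and SOX4 was higher in KLF4 cells by 0.64 (adjusted p = 0.00752). That SOX4 call was lost without Control replicate 1 (adjusted p = 0.0619) or KLF4 replicate 1 (0.0513). SOX12 was higher with each factor, by 1.70 to 2.35 on the log2 scale, and missed the threshold in all 5 comparisons without Control replicate 1 (adjusted p = 0.0514 to 0.178). In EGR1 cells that call was also lost without EGR1 replicate 1 (adjusted p = 0.182), KLF2 replicate 1 (0.0502) or either KLF4 library (0.0513 and 0.0511), and in KLF2 cells without KLF2 replicate 1 (0.0554). In OSR1 cells the SOX12 call was also lost in the fit of the 2 groups only (adjusted p = 0.0616, edgeR). SOX12 levels were low, at 0.413 and 0.891 CPM in Control libraries and 1.82 and 4.86 CPM in OSR1 libraries. SOX18, a gene of endothelial cells, was higher in OSR1, KLF2 and KLF4 cells by 1.02, 1.06 and 1.25 (adjusted p = 0.0033, 0.00249 and 0.00089, edgeR). In OSR2 cells its change of 0.84 (adjusted p = 0.00871) was not called without Control replicate 1 (0.0757) or OSR2 replicate 2 (0.0894).

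Genes known, mostly in mouse, as targets of the 3 factors in cartilage were followed in a list of 30, of which 28 were tested. The list was chosen with earlier results of these data known, so its counts beside those of all genes are a description and not a test. Most of these targets, like the members, were lower in OSR cells. In OSR1 cells 25 of the 28 were called lower, where 22.7% of all genes were, and the median log2 fold change was -1.99, against 0.050 over all genes. In OSR2 cells 25 of 28 were called lower, where 23% of all genes were, and the median was -2.49, against 0.045 over all genes. COL2A1, the main cartilage collagen, fell by 1.43 in OSR1 and by 2.06 in OSR2 cells (adjusted p = 0.000207 and 1.86e-05, edgeR). COL9A1, whose product coats type II collagen fibrils, fell by 3.12 and by 4.16 (adjusted p = 2.09e-05 and 3.94e-06), and MATN1, a cartilage matrilin, by 2.65 and by 4.14 (adjusted p = 8.89e-05 and 8.72e-06). ACAN, the aggrecan core protein, fell by 2.29 and by 2.81, and HAPLN1, which links it to hyaluronan, by 2.61 and by 3.14. The target list had 2 genes called higher in each OSR group, where 28.4% and 28.9% of all genes were called higher. In OSR1 cells that count came to 0 when either Control library or OSR1 replicate 2 was left out. In OSR2 cells it came to 1 without Control replicate 1 or OSR2 replicate 2.

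In KLF cells, where SOX5 and SOX6 fell and SOX9 was not called, the targets changed in both directions. Called lower were 17 of 28 in KLF2 and 16 of 28 in KLF4 cells, where 23.5% and 25.5% of all genes were, with medians of -0.57 and -0.51, against 0.0175 and -0.0057 over all genes. COL2A1 had log2 fold changes of 0.029 in KLF2 and 0.022 in KLF4 cells (adjusted p = 0.904 and 0.928, edgeR). COL9A1 fell by 1.06 and by 1.17 (adjusted p = 0.00409 and 0.0024), MATN1 by 1.36 and by 1.55 (adjusted p = 0.00201 and 0.000993), LECT1 by 0.93 and by 0.92 (adjusted p = 0.000215 and 0.000179) and CYTL1, which encodes a small secreted cytokine-like protein of cartilage, by 0.56 and by 0.83 (adjusted p = 0.00416 and 0.000394). MATN4, another matrilin, rose by 1.05 in KLF2 and by 0.82 in KLF4 cells (adjusted p = 0.000868 and 0.00283, edgeR), and it fell by 0.84 in OSR1 and by 1.24 in OSR2 cells (adjusted p = 0.00294 and 0.000321). In KLF2 cells 3 targets were called higher and in KLF4 cells 5, where 28.1% and 28.7% of all genes were. The count in KLF4 cells came to 3 without Control replicate 1 or KLF4 replicate 1.

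In EGR1 cells, where no member was called, 10 of the 28 targets were called lower and 5 higher, where 20.5% and 24.6% of all genes were, with a median of -0.10 against 0.0145 over all genes. The count lower came to 4 or 6 when Control replicate 1 or 2 was left out and to 4 without EGR1 replicate 2, and the count higher to 0 without Control replicate 1 or EGR1 replicate 1. COL2A1 was higher by 0.58 (adjusted p = 0.0261, edgeR), a call lost without Control replicate 1 (adjusted p = 0.183) or EGR1 replicate 1 (0.198). Over the whole list in EGR1 cells, log2 fold changes ran from -2.02 to 1.12. HAPLN1 (-0.50), LECT1 (-0.33) and CYTL1 (-0.35) were called lower there (adjusted p = 0.0104, 0.0494 and 0.0433, edgeR). MATN4 was called higher (0.68, adjusted p = 0.0103, edgeR). Of the 18 alternatives, 16 kept the call for HAPLN1, 16 for MATN4, 8 for LECT1 and 9 for CYTL1. In OSR cells set against KLF cells, 25 of the 28 targets were called lower, where 15.6% of all genes were, with a median difference of -1.86 against -0.0058 over all genes.

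**Figure D5:**
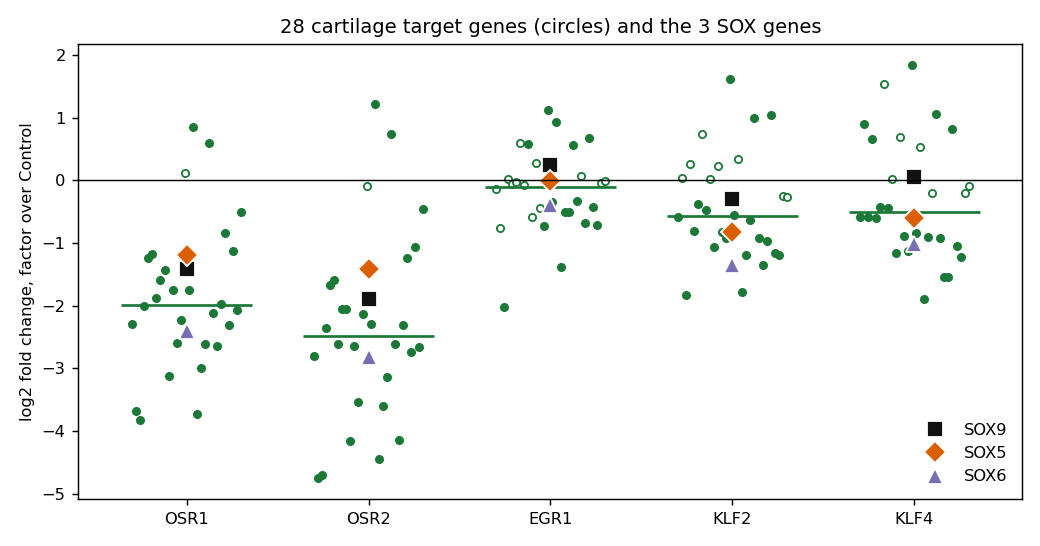
Log2 fold change against Control of the 28 tested target genes in each factor group, with the 3 members marked. The list's median is -1.99 with OSR1 and -2.49 with OSR2, and lies between -0.57 and -0.10 with EGR1, KLF2 and KLF4.

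Upstream signals and partners of SOX9 were followed in a list of 46 genes, of which 44 were tested. They did not share the direction of the members. In OSR1 cells 16 were called higher and 15 lower, in OSR2 cells 16 and 16, in EGR1 cells 15 and 5, in KLF2 cells 19 and 13, and in KLF4 cells 21 and 11, with medians from 0.029 to 0.35. As shares of the 44 genes, 36.4% were called higher and 34.1% lower in OSR1 cells, against 28.4% and 22.7% of all genes. In OSR2 cells the shares were 36.4% and 36.4% (28.9% and 23% of all genes), in EGR1 cells 34.1% and 11.4% (24.6% and 20.5%), in KLF2 cells 43.2% and 29.5% (28.1% and 23.5%), and in KLF4 cells 47.7% and 25% (28.7% and 25.5%). The counts lower came to 3 in EGR1 cells without EGR1 replicate 2, and to 8 in KLF2 and 7 in KLF4 cells without Control replicate 1. NOTCH1, a receptor that restrains chondrogenesis in mouse, rose with each factor, by 1.12 in OSR1 cells up to 1.51 in KLF4 cells. ARID5B, a cofactor of SOX9 in mouse, also rose with each, by 0.83 in EGR1 cells up to 1.69 in OSR2 cells. HIF1A, the hypoxia factor of cartilage, fell by 0.80 in KLF2 and by 0.71 in KLF4 cells, and CTNNB1, the beta-catenin gene, rose by 0.61 and 0.69 there. HIF1A was also called lower in OSR1 and OSR2 cells, with smaller log2 fold changes of -0.30 and -0.29 (adjusted p = 0.0246 and 0.0249, edgeR). Without Control replicate 1 these were -0.21 and -0.20, and both calls were lost. The OSR1 call was kept in 15 of the 18 alternatives and the OSR2 call in 16. In EGR1 cells HIF1A was not called (-0.14, adjusted p = 0.254).

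Some further regulators were chosen after their values were seen. BMPR1B, the bone morphogenetic protein receptor of limb condensations, fell by 1.64 in OSR1 and by 2.0 in OSR2 cells (adjusted p = 1.12e-05 and 2.5e-06, edgeR), and RUNX2, a regulator of chondrocyte hypertrophy and bone, fell by 1.11 and by 1.49 (adjusted p = 1.22e-05 and 1.5e-06). RUNX2 was not called in EGR1, KLF2 or KLF4 cells, with log2 fold changes of 0.032, 0.18 and 0.22 (adjusted p = 0.801, 0.125 and 0.0717). BMPR1B was -0.55 in KLF2 and -0.51 in KLF4 cells, calls that were lost without Control replicate 1 (adjusted p = 0.0506 and 0.0622) and, in KLF4 cells, without KLF4 replicate 1 (0.0713). NKX3-2, a repressor that acts with SOX9 in chick somites, fell by 0.84 in OSR1, by 1.06 in OSR2, by 0.84 in EGR1, by 1.11 in KLF2 and by 1.24 in KLF4 cells. The call in EGR1 cells (adjusted p = 0.00813, edgeR) was lost without EGR1 replicate 2 (0.0505).

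On each side of each member, the nearest protein-coding gene in a current RefSeq gene table whose name is among the listed features was read. A gene absent from the counts by that name was passed over, so these genes need not be adjacent to the member. They were also chosen after their values were seen. Next to SOX9, KCNJ2 rose in OSR1, OSR2, KLF2 and KLF4 cells, by 0.69 to 1.07 on the log2 scale, and was not called in EGR1 cells (0.27, adjusted p = 0.0817, edgeR). SLC39A11, on the other side of SOX9, rose with all 5 factors, by 0.51 in OSR2 cells up to 0.93 in KLF4 cells. Neither gene followed SOX9, which fell in OSR cells and was not called with the other factors. Next to SOX5, BCAT1 fell with all 5 factors, by 1.14 in EGR1 cells and by 1.46 to 1.74 in the 4 other groups. ETNK1, on the other side of SOX5, was also called lower with all 5, by log2 fold changes from -0.77 to -0.49, and its call in EGR1 cells was lost without Control replicate 1 (adjusted p = 0.0509). Next to SOX6, C11orf58 was not called in any comparison with Control, with log2 fold changes from -0.10 to 0.015, while INSC rose in KLF2 cells by 0.72 (adjusted p = 0.00246). INSC was lower in OSR than in KLF cells by 0.91 on the log2 scale (adjusted p = 6.19e-05, edgeR), as SOX6 was. In OSR2 cells its log2 fold change was -0.40 (adjusted p = 0.0416), which missed the threshold in 9 of the 18 alternatives (adjusted p = 0.0547 to 0.159), namely the replicate block and the fits without any 1 Control, OSR2, EGR1 or KLF4 library.

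Markers of other cell types moved between the groups as well. The summed level of 6 listed muscle genes, including MYOD1 and MYOG, was 554 to 560 CPM in OSR1, 548 to 554 CPM in OSR2, 497 to 521 CPM in EGR1, 346 to 408 CPM in KLF2, 317 to 320 CPM in KLF4 and 582 to 628 CPM in Control libraries. ACTC1 made up most of that sum, with group means from 274 CPM in KLF4 to 495 CPM in OSR1 libraries, while MYOD1 averaged 6.72 to 14.0 CPM and MYOG 2.48 to 4.46 CPM over the 6 groups. TNNT3 averaged 35.6 to 46.5 CPM in the 5 factor groups, against 118 CPM in Control libraries. MYF5 and PAX7, which mark muscle progenitors, were at most 0.127 and 0.331 CPM in any library. The summed 6 mesenchyme markers ran from 11420 to 16310 CPM over the 10 factor libraries, against 7201 and 8039 CPM in Control libraries. COL1A2 made up most of that sum, with group means from 6344 CPM in Control to 11270 CPM in KLF2 libraries. LHX9 did not follow the sum. It averaged 177 CPM in OSR1, 178 CPM in OSR2, 113 CPM in EGR1, 104 CPM in KLF2, 85.3 CPM in KLF4 and 126 CPM in Control libraries. The 4 endothelial markers summed to between 57.0 and 80.1 CPM in OSR1, OSR2, EGR1 and KLF2 libraries, 155 to 159 CPM in KLF4 libraries and 118 to 124 CPM in Control libraries, but they went opposite ways. PECAM1 was called lower in all 5 factor groups, with 47.3 CPM in KLF2 and 42.8 CPM in KLF4 libraries, against 107 CPM in Control libraries. KDR, CDH5 and TIE1 were called higher in KLF2 cells, by 0.94, 1.30 and 3.46 on the log2 scale, and in KLF4 cells, by 3.00, 2.21 and 4.39. SOX9 and SOX5 are also expressed in glia and neural crest cells. The 6 glia and crest markers summed to 81.8 to 93.5 CPM in OSR1, 80.0 to 86.1 CPM in OSR2, 120 to 127 CPM in EGR1, 74.2 to 74.8 CPM in KLF2, 73.3 to 74.2 CPM in KLF4 and 52.7 to 59.4 CPM in Control libraries. FABP7 made up most of that sum, with group means from 51.9 to 115 CPM, while SOX10 was at most 1.45 CPM in any library and FOXD3 was at 0 in all OSR2 and KLF2 libraries. The 5 epithelial markers summed to between 16.5 and 46.7 CPM in OSR1, OSR2, EGR1 and KLF2 libraries, 66.0 to 83.0 CPM in KLF4 and 19.0 to 22.0 CPM in Control libraries. Of 9 erythroid markers looked for, 6 were among the counted genes. These summed to between 2.14 and 6.50 CPM over all libraries, with HBA1 at 0 in each. The globin genes HBAD, HBAA and HBBA were not found by name in the counts, so the low sum does not show that red cells were absent. The part of these cell types in the levels of the 3 members was not tested.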

How the data were processed

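Poly(A) RNA libraries were strand-specific and read as paired 50 bp ends, per the labels' protocols. The deposited values are raw counts, with 1 whole number for each gene in each library's table. TopHat2, SAMtools, featureCounts, DESeq2 and the build galGal4 are named in the submitters' processing notes. No source used here gives their versions, their roles, the annotation or the strand setting, so reads of overlapping genes and close SOX paralogs may be shared. Isoforms were not separated.

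The main tests used edgeR 4.0.16 (with limma 3.58.1, in R 4.3.3; filterByExpr with minimum count 10, TMM scaling, robust quasi-likelihood F test, two-sided). Groups came from the titles. 1 model held 12 libraries, and p-values were adjusted over 18979 genes, with calls under 0.05. Ratios used an exact permutation test in Python 3.11.15, and figures matplotlib 3.10.9. Fold changes are fitted log2 values. The members and lists were chosen with earlier results of these data known.

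Named genes were the members, other SOX genes of at least 1 CPM, up to 10 called genes of each list by mean CPM, and the 5 genes most like each member. A RefSeq table (GRCg7b) gave names and neighbours only. Alternatives included DESeq2 1.42.0. In no group were the replicates alike within counting noise. In simulated counts of 18843 genes with 200 changed per factor, edgeR found 55.2% to 73.1% of the 2-fold changes against Control and 84.8% to 95.5% of the 4-fold changes, and 4.41% to 9.35% of calls were false. Far more genes were called in the real data than were changed in the simulation, so these rates may not carry over.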

Additional observations from a re-analysis of the deposited data

How the results depend on the processing

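Of the member results, the 10 calls against Control and the 3 OSR minus KLF calls kept direction and side of the threshold under every alternative run. All ratio comparisons kept direction. Their side of the threshold was fixed, as too few libraries were compared for an adjusted p under 0.05. SOX6 in EGR1 minus Control became called with DESeq2 (-0.40), with library totals alone (-0.48) and with only the groups compared (-0.42), and leaving out single libraries gave -0.50 to -0.28, called when 1 OSR2 library, either one, was left out. The same gave -0.083 to 0.062 for SOX5 in EGR1 cells and -0.046 to 0.17 for SOX9 in KLF4 cells, turning the sign of values that were not called. The causes were not tested. The Control SOX6 level moved by more than its SD, to 26.6 CPM with median-of-ratios factors and 27.1 CPM with totals alone, as did the Control SOX9 level, to 381 CPM with totals alone. In all 5 comparisons with Control, KLF4 included, fewer genes were called when either Control library was left out. The same held when either library of the factor compared was left out. Such fits hold 1 library in a group. Replicate numbers did not pair the samples in 1 direction over all groups (15 pairs of groups, correlation -0.29 to 0.22, with 4 over 0.1 and 5 below -0.1). Whether some groups shared a preparation was not tested. With the replicate block, 9195, 9386, 8080, 9328 and 9907 genes were called for OSR1, OSR2, EGR1, KLF2 and KLF4, and among members it ended the call of SOX9 in EGR1 minus KLF2 and made that of SOX5 in OSR1 minus KLF2. Whether the lower depth of the Control libraries affects these results was not tested. With 2 libraries a group the intervals are wide. In the simulation, which changed far fewer genes than were called here, 1.5-fold changes were recovered in 23.9% to 37.3% of cases.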
